A study of Mus musculus with 65 samples.

Results

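Binding sites of RAD21 were compared between 2 untreated sublines of the G1E-ER4 line of mouse erythroblasts, immature red blood cells. The members are all RAD21 peaks on chromosomes 1 to 19 and X in the deposited lists of untreated LDB1-AID and untreated SMC3-AID cells. They number 48383, and the 9 deposited lists of the series hold 143220 peaks over all chromosomes. The LDB1-AID list held 33160 of them and the SMC3-AID list 15223. Each peak was put in a class by overlap: it counted as shared when 1 bp or more of it was covered by a RAD21 peak of the other list. This gave 14378 shared peaks and 18782 peaks found in LDB1-AID cells only from the first list, and 14406 shared peaks and 817 peaks found in SMC3-AID cells only from the second.

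RAD21 was measured by chromatin immunoprecipitation and sequencing (ChIP-seq) in 2 libraries of the LDB1-AID subline and 3 libraries of the SMC3-AID subline, none of them treated with auxin. In each subline the protein it is named for carries an auxin-inducible degron, a tag that leads to degradation of the protein once auxin is added. The untreated cells of both sublines therefore still carry a tagged protein: in SMC3-AID cells it is a subunit of cohesin itself, and in LDB1-AID cells a cofactor of enhancers. The labels do not say whether a subline is 1 clone. The lists of CTCF and YY1 used here come from untreated LDB1-AID cells (54223 and 12816 peaks), and LDB1 was listed in untreated cells of both sublines (10729 peaks in LDB1-AID and 8585 in SMC3-AID cells).

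Cohesin is a ring-shaped complex in which SMC1 and SMC3 are closed by RAD21. It extrudes loops of chromatin and halts at CTCF, a zinc finger protein bound to an oriented DNA motif, so cohesin peaks of mammalian cells lie mostly on CTCF sites. A smaller part lies at active promoters and enhancers, where cohesin loaders, YY1 and, in erythroid cells, the LDB1 complex with GATA1 and TAL1 are found. YY1 is a zinc finger protein that binds promoters and enhancers, and LDB1 is a cofactor that binds no DNA itself but dimerises and joins distant elements.

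All peaks in the lists are 400 bp wide and carry no score, and the replicates had been combined by the authors, so the spread between replicates is not known for any value. Intervals are 95% intervals (Wilson for a share, Newcombe for a difference between shares) and cover counting error only, because peaks are not replicates. Read depth behind the lists is unknown. The LDB1-AID list held from 1.95 to 2.72 times as many RAD21 peaks as the SMC3-AID list across the 20 chromosomes, and whether depth, peak calling or occupancy set this ratio was not tested. In bulk cells, fewer cells with RAD21 at a site and less RAD21 per cell cannot be told apart. The cell type is that of the labels, since peak lists hold no expression of marker genes.

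The smaller list lay almost wholly inside the larger one. An LDB1-AID counterpart was found for 94.6% of SMC3-AID peaks, and an SMC3-AID counterpart for 43.4% of LDB1-AID peaks. By chromosome, the SMC3-AID share ran from 92.4% on chromosome 15 to 96.5% on chromosome 18. The LDB1-AID share ran from 35.0% on chromosome 12 to 47.9% on chromosome 1, with a median of 42.8%, and the X chromosome stood second lowest at 37.4%. All 20 chromosomes had the same order, with the 2 ranges far apart. This order is no separate result, because the lists had nearly equal numbers of shared peaks and the LDB1-AID list was longer on each chromosome.

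**Figure D1:**
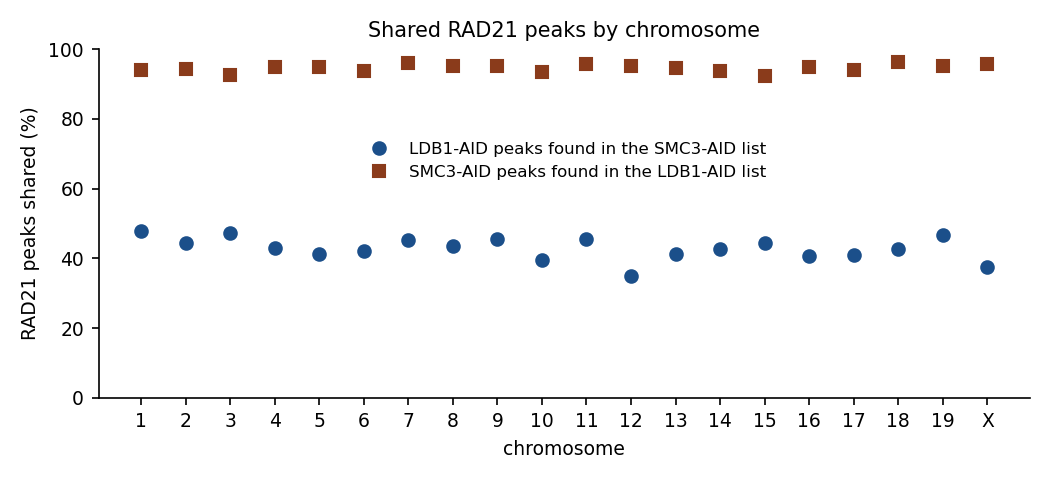
Percent of RAD21 peaks with a counterpart in the other list (y axis) on each chromosome (x axis). Circles are LDB1-AID peaks, between 35.0% and 47.9%, and squares are SMC3-AID peaks, between 92.4% and 96.5%.

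Where both lists had a peak, they placed it at nearly the same position. The 14407 overlapping pairs had a median distance of 34 bp between midpoints, with quartiles of 16 and 66 bp. Of the pairs, 65.3% (64.6 to 66.1) lay within 50 bp and 95.2% (94.8 to 95.5) within 200 bp. The SMC3-AID midpoint was at the higher coordinate in 7210 pairs and at the lower in 7053, so the offset had no preferred direction along the chromosome. Only 29 LDB1-AID peaks overlapped 2 SMC3-AID peaks, and 1 SMC3-AID peak overlapped 2 LDB1-AID peaks. The edge of the class rule was thinly filled: 122 pairs had an offset of 350 bp or more, just inside it, while 79 LDB1-AID-only and 103 SMC3-AID-only peaks had the nearest midpoint of the other list at under 450 bp, just outside.

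CTCF marked the shared class. A CTCF peak was present at 94.6% (94.2 to 94.9) of shared LDB1-AID peaks and at 70.5% (69.8 to 71.1) of LDB1-AID-only peaks, against 80.9% of that whole list. The difference was 24.1 points (23.3 to 24.8), and the shared class was higher on 20 of 20 chromosomes. In the SMC3-AID list, 94.7% (13636) of shared and 51.0% (47.6 to 54.5) of SMC3-AID-only peaks had CTCF, against 92.3% of the list. That difference was 43.6 points (40.2 to 47.1), again with the shared class higher on 20 of 20 chromosomes. Between the unshared classes, CTCF was 19.4 points (16.0 to 22.9) more frequent at LDB1-AID-only peaks. CTCF was listed in LDB1-AID cells only, so CTCF sites of SMC3-AID cells alone could not be counted.

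YY1 and LDB1 had the reverse order over all peaks. YY1 was present at 6.61% (6.21 to 7.03) of shared and 13.9% (13.4 to 14.4) of LDB1-AID-only peaks, against 10.7% of the list. LDB1 of LDB1-AID cells was present at 3.38% (3.097 to 3.69) of shared and 11.8% (11.3 to 12.3) of LDB1-AID-only peaks, against 8.15% of the list. Both were higher in the unshared class on 20 of 20 chromosomes. With the LDB1 list of SMC3-AID cells, a separate set of libraries, the values were 2.73% and 9.06%, against 6.31% of the list.

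Among SMC3-AID peaks, YY1 was at 6.33% of shared and 14.0% (11.7 to 16.5) of unshared peaks, against 6.74% of the list. LDB1 of LDB1-AID cells was at 3.21% and 5.51% (4.14 to 7.29), against 3.33%, and LDB1 of SMC3-AID cells at 2.68% and 7.59% (5.96 to 9.61), against 2.94%. Over all peaks the unshared class was thus higher for all 3 lists, on 15 to 17 of 20 chromosomes. This order depended on the overlap rule and on CTCF. When a gap of up to 1 kb counted as shared, the shared minus unshared difference was 3.88 points for YY1 and 0.389 points (-2.02 to 1.76) for LDB1 of LDB1-AID cells, and among peaks without CTCF it was 8.88 and 17.0 points. At least 1 of CTCF, YY1 and LDB1 had a peak at 96.5% of shared LDB1-AID, 86.0% of LDB1-AID-only and 60.8% of SMC3-AID-only peaks. All of these lists come from LDB1-AID cells, so sites of SMC3-AID cells alone were not counted.

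**Figure D2:**
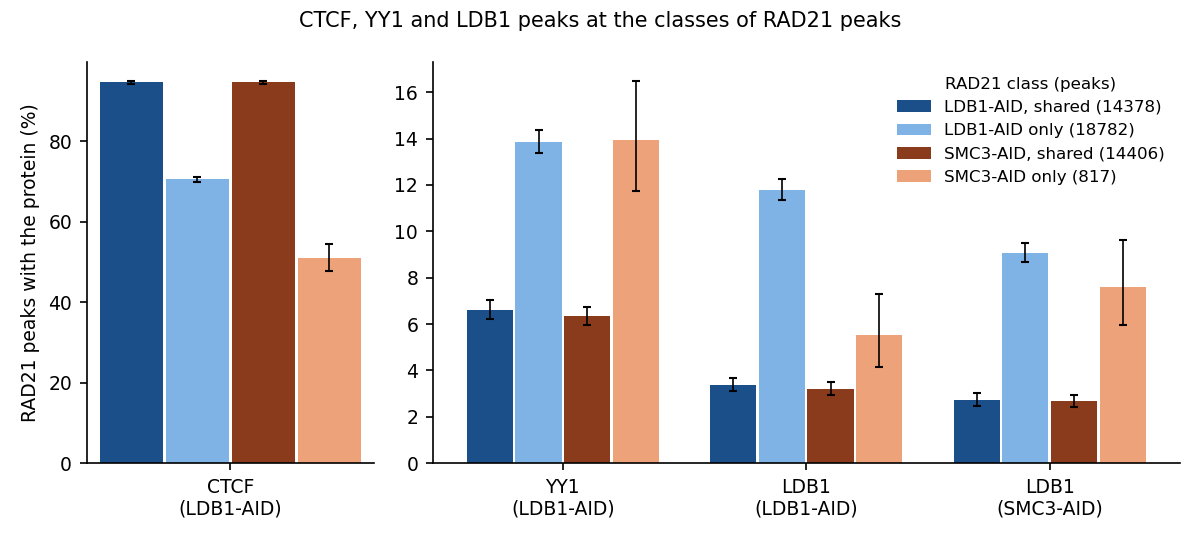
Percent of RAD21 peaks (y axis) with a peak of CTCF, of YY1 or of LDB1 (x axis, with the subline of that list in brackets) in the 4 classes, with 95% Wilson intervals as bars. CTCF is at over 94% of both shared classes, and YY1 and LDB1 are higher in the unshared classes.

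Turned round, the proteins at a peak set apart how often it was found in the other subline. Of the 26833 LDB1-AID peaks with CTCF, 50.7% were found in SMC3-AID cells, against 12.4% of the 6327 without, a difference of 38.3 points (37.3 to 39.3). Peaks with CTCF alone were found in 51.1% of cases (50.5 to 51.7, n = 24719). With CTCF and YY1 the share was 46.3% (43.8 to 48.9, n = 1487), with CTCF and LDB1 45.0% (40.3 to 49.7, n = 429) and with all 3 proteins 42.4% (35.7 to 49.4, n = 198). These 3 intervals overlap one another, and each lies below that of CTCF alone.

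Away from CTCF peaks the shares were far lower. Peaks with none of the 3 proteins were found in 16.0% of cases (14.7 to 17.3, n = 3132), those with YY1 alone in 6.51% (5.21 to 8.11, n = 1121) and those with LDB1 alone in 7.92% (6.58 to 9.50, n = 1326). Peaks with both YY1 and LDB1 were found in 13.9% (11.6 to 16.6, n = 748), above either protein alone. In the SMC3-AID list the order without CTCF differed: 87.6% (81.0 to 92.1, n = 137) with both, 79.6% (71.1 to 86.1, n = 108) with LDB1 alone, 59.4% (49.7 to 68.5, n = 101) with YY1 alone and 61.2% (57.8 to 64.4, n = 824) with none of the 3. SMC3-AID peaks with LDB1 and no CTCF thus had a counterpart in 79.6 to 87.6% of cases, below the 94.6% of that whole list. Such LDB1-AID peaks had a counterpart in 7.92 to 13.9% of cases, below the 43.4% of their whole list. The LDB1-AID list is the longer, with 33160 peaks against 15223, so shares of the lists are not directly comparable.

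**Figure D3:**
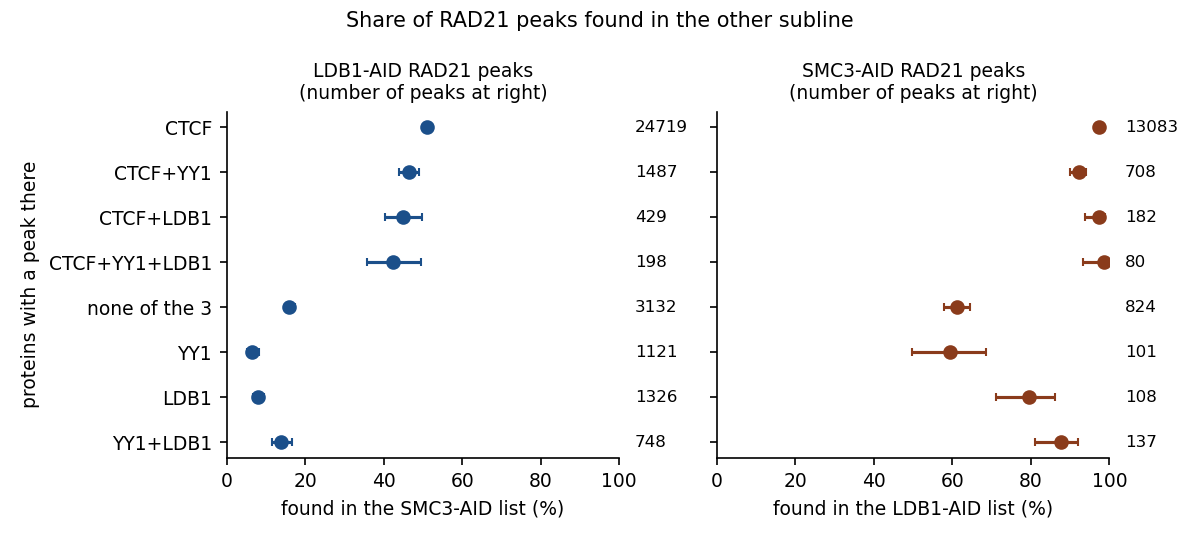
Percent of RAD21 peaks found in the other list (x axis) by the proteins with a peak there (y axis), with 95% Wilson intervals and the number of peaks at the right. Left, LDB1-AID peaks: 42.4 to 51.1% with CTCF and 6.51 to 16.0% without. Right, SMC3-AID peaks: at least 92.2% with CTCF and 59.4 to 87.6% without.

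Peaks without CTCF differed in how near a CTCF site they lay. Of the 782 shared LDB1-AID peaks without a CTCF peak, the median distance to the nearest CTCF midpoint was 747 bp, while for the 5545 LDB1-AID-only peaks without CTCF it was 5646 bp. LDB1-AID peaks off a CTCF peak but with a CTCF midpoint within 1 kb were found in SMC3-AID cells in 37.6% of cases (34.9 to 40.3, n = 1237). At 1 to 5 kb the share was 6.50% (5.50 to 7.67, n = 1985), at 5 to 25 kb 5.29% (4.41 to 6.34, n = 2079) and beyond 25 kb 7.60% (6.13 to 9.39, n = 1026). The intervals of the 3 ranges past 1 kb overlap. With no CTCF midpoint within 1 kb, 317 of 5090 LDB1-AID peaks were shared.

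Among these CTCF-distant RAD21 peaks the order of LDB1 and YY1 between the classes turned over. LDB1 of LDB1-AID cells was present at 58.4% (52.9 to 63.7) of the 317 shared and 36.7% (35.3 to 38.0) of the 4773 LDB1-AID-only peaks, a difference of 21.7 points (16.0 to 27.2), with the shared class higher on 18 of 20 chromosomes. With the LDB1 list of SMC3-AID cells the shares were 55.8% and 28.4%, a difference of 27.5 points (21.8 to 33.0). YY1 was present at 39.7% and 31.5%, a difference of 8.24 points (2.84 to 13.9), with the shared class higher on 17 of 20 chromosomes. On CTCF peaks, where 94.6% of the shared class lay, LDB1 was at 2.04% of shared and 2.64% of LDB1-AID-only peaks.

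The same order held in the SMC3-AID list. Of its 324 shared peaks with no CTCF midpoint within 1 kb, 57.7% (52.3 to 63.0) had LDB1 of LDB1-AID cells and 41.4% (36.1 to 46.8) had YY1. Of the 242 SMC3-AID-only peaks there, 12.0% (8.47 to 16.7) had LDB1 and 14.9% (10.9 to 19.9) had YY1. The differences were 45.7 points (38.5 to 52.1) for LDB1 and 26.5 points (19.2 to 33.2) for YY1. LDB1 of SMC3-AID cells gave 57.7% and 19.8%.

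Past 1 kb from CTCF, more than 50% of shared LDB1-AID peaks had LDB1. Among shared LDB1-AID peaks it was 5.16% up to 1 kb, 51.2% (42.6 to 59.6) at 1 to 5 kb, 61.8% (52.5 to 70.4) at 5 to 25 kb and 65.4% (51 of 78) beyond 25 kb. Among LDB1-AID-only peaks the corresponding shares were 14.9%, 30.1%, 40.1% and 42.3%. Up to 1 kb the shared minus unshared difference was -9.74 points (-12.9 to -6.38), and in each of the 3 farther ranges the shared class was higher by 21.0 to 23.1 points. For YY1 in this list the interval of the difference left out 0 beyond 25 kb (18.9 points, 8.17 to 30.3) and, in the opposite direction, up to 1 kb and on CTCF peaks. At 1 to 5 kb it was 2.65 points (-5.45 to 11.5) and at 5 to 25 kb 8.55 points (-0.487 to 18.1). Beyond 25 kb, LDB1 of SMC3-AID cells was present at 24.5% of the 106 SMC3-AID-only peaks, and at 16.0% of 94 without the start of chromosome 9.

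**Figure D4:**
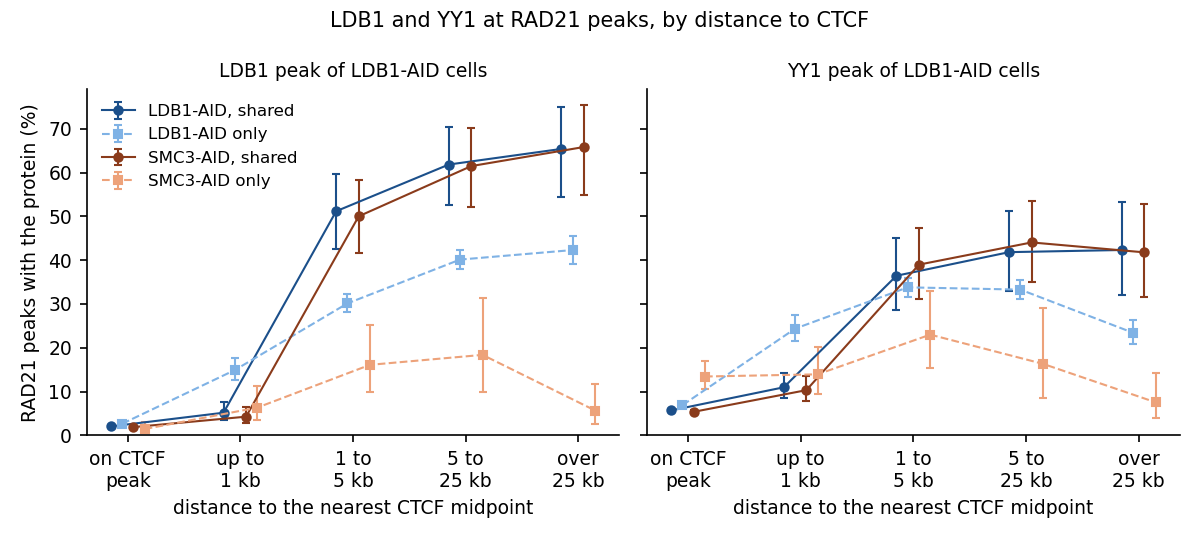
Percent of RAD21 peaks (y axis) with an LDB1 peak (left) or a YY1 peak (right) of LDB1-AID cells, by distance to the nearest CTCF midpoint (x axis), in the 4 classes with 95% Wilson intervals. LDB1 at shared peaks goes from 5.16% up to 1 kb to 65.4% beyond 25 kb, and past 1 kb both shared classes lie above the unshared ones.

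Within the CTCF-distant LDB1-AID peaks, being found in SMC3-AID cells went with LDB1 and most with LDB1 and YY1 together. Of 697 such peaks with both proteins 13.9% were found, against 7.11% of 1238 with LDB1 alone, a difference of 6.81 points (3.96 to 9.87). LDB1 alone exceeded neither protein (4.64% of 2222) by 2.47 points (0.857 to 4.23). YY1 alone was at 3.11% of 933, and its difference from neither protein was -1.53 points with an interval from -2.86 to 0.0156, which includes 0. In the SMC3-AID list, LDB1 alone exceeded neither protein by 49.0 points (38.7 to 56.7) and YY1 alone exceeded it by 18.8 points (3.42 to 33.3). There, LDB1 and YY1 together differed from LDB1 alone by 1.49 points with an interval from -7.56 to 11.3, which includes 0.

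RAD21 peaks unique to a subline also went with LDB1 peaks unique to it. LDB1-AID RAD21 peaks with no CTCF midpoint within 1 kb were found in SMC3-AID cells in 11.6% of 1512 cases on LDB1 peaks that both sublines had, and in 2.13% of 423 cases on LDB1 peaks of LDB1-AID cells alone, a difference of 9.51 points (7.11 to 11.5). In the SMC3-AID list the same comparison gave 87.9% of 206 and 20.7% of 29, a difference of 67.2 points (48.7 to 78.7). Without the start of chromosome 9 described below, it gave 88.7% of 204 and 30% of 20, a difference of 58.7 points (36.2 to 74.6). Over all RAD21 peaks, CTCF sites included, the LDB1-AID difference was 2.12 points with an interval from -1.32 to 5.28, so there no difference was detectable. In the SMC3-AID list it was 46.4 points (31.4 to 60.4) over all RAD21 peaks, and 35.2 points (19.6 to 51.8) without the start of chromosome 9. The RAD21 and LDB1 lists of a subline were made from separate libraries of the same cells, and a difference in depth between the sublines' libraries was not tested.

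On CTCF sites, the RAD21 midpoints of the 2 sublines mostly lay on the same side of the CTCF midpoint. Among 13596 shared LDB1-AID peaks with CTCF, the median distance to the CTCF midpoint was 68 bp, with quartiles of 35 and 117 bp. The 13636 shared SMC3-AID peaks with CTCF had a median of 66 bp (34 and 113). Of 10370 pairs with both RAD21 midpoints at least 20 bp from the midpoint of the same CTCF peak, 92.7% (92.2 to 93.2) had both on the same side of it. The signed distances of the 2 sublines had a Pearson r of 0.764 across 13524 sites, which share the CTCF midpoint, so an error in that position adds to the likeness. The RAD21 midpoints were nearer to each other than either was to CTCF in 56.6% of these pairs. That share also uses the CTCF midpoint, so it is not free of such an error. RAD21 was at the higher coordinate of CTCF in 49.9% of pairs, and the orientation of the CTCF motif was not analysed here.

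RAD21 sites found in LDB1-AID cells only were centred closer to CTCF. Their median distance was 45 bp (quartiles 21 and 80, n = 13237). Within 50 bp of the CTCF midpoint lay 55.7% of them, against 37.5% of the shared peaks of the same list, a difference of 18.1 points (17.0 to 19.3) with the same direction on 20 of 20 chromosomes. In bins of 20 bp, LDB1-AID-only peaks had their highest share at the centre (12.0%), while the shared class of that list was nearly flat within 60 bp of it, at 6.77 to 7.79% per bin, with a shallow dip in the middle. The 417 SMC3-AID-only peaks with CTCF had a median of 66 bp, and their share within 50 bp (38.4%) differed from that of shared SMC3-AID peaks (38.1%) by 0.235 points with an interval from -4.38 to 5.06.

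**Figure D5:**
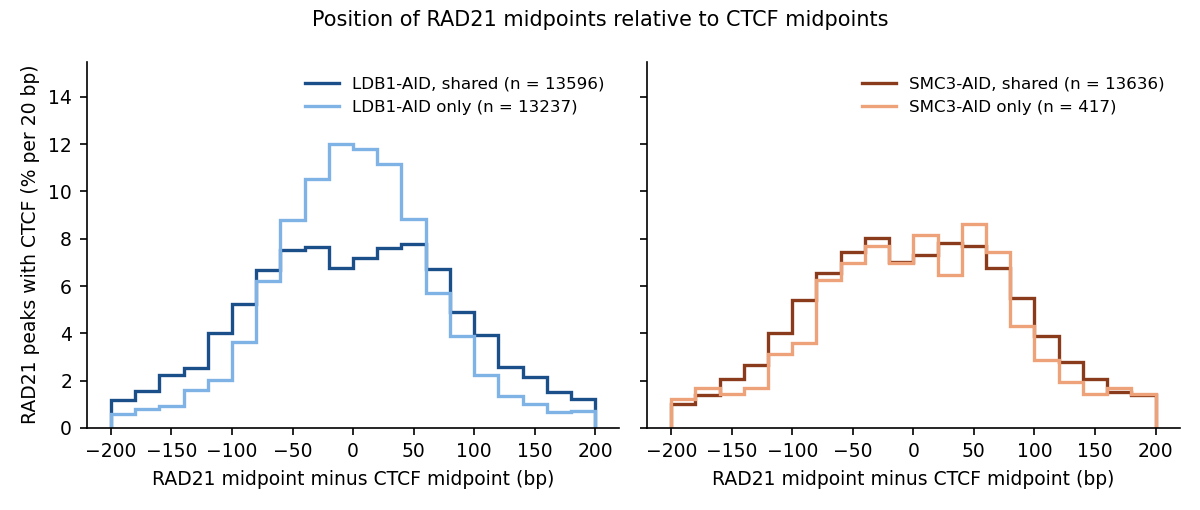
Distribution of the RAD21 midpoint minus the CTCF midpoint in bp (x axis, 20 bp bins from -200 to 200) for RAD21 peaks with CTCF, as percent of each class per bin (y axis). LDB1-AID-only peaks peak at the centre at 12.0% per bin, and the shared peaks of both lists are flatter, with a shallow dip there.

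The same measure separated LDB1 sites with and without CTCF. At shared LDB1-AID peaks the median distance between RAD21 and LDB1 midpoints was 85 bp without CTCF (n = 209) and 140 bp with CTCF (n = 277). At LDB1-AID-only peaks the medians were 69 bp (n = 1865) and 145 bp (n = 350). For YY1 the medians were 135 and 129 bp at shared and 140 and 142.5 bp at LDB1-AID-only peaks, without and with CTCF. RAD21 was thus centred nearer to LDB1 where CTCF was lacking, and its distance to YY1 was alike with and without CTCF. Between the sublines, shared pairs with no CTCF midpoint within 1 kb had a median offset of 69.5 bp (n = 320), against 34 bp for pairs with CTCF (n = 13619).

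Seen from the CTCF list, 13560 of the 54223 CTCF peaks carried RAD21 in both sublines, 13256 (24.4%) in LDB1-AID cells alone, 473 (0.872%) in SMC3-AID cells alone and 26934 (49.7%) in neither. Of 12816 YY1 peaks, 7.08% carried RAD21 in both, 20.5% in LDB1-AID cells alone and 0.913% in SMC3-AID cells alone.

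Shared and LDB1-AID-only peaks differed little in spacing. The nearest other RAD21 peak of the list was at a median of 10260 bp for shared and 9739 bp for LDB1-AID-only peaks. Another peak within 25 kb was present for 74.6% and 74.5%, a difference of 0.118 points with an interval from -0.830 to 1.06. The difference was -1.56 points (-2.64 to -0.473) within 10 kb and 1.13 points (0.677 to 1.58) within 100 kb, so its sign depended on the distance. Peaks of a class followed one another somewhat more often. Where the next peak lay within 25 kb, it was shared in 46.0% of cases (44.9 to 47.2) after a shared peak and in 40.4% (39.4 to 41.4) after an LDB1-AID-only peak. The CTCF surroundings of RAD21 peaks on CTCF were also alike, with a median of 2 CTCF peaks within 10 kb in both classes.

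Linked by distances of at most 25 kb, the LDB1-AID-only peaks formed 383 chains of 5 or more peaks and the shared peaks 96. The LDB1-AID-only class is also the larger one, with 18782 peaks against 14378. The 3 shared chains with the most members held 8 peaks each. They lie at chr8:26325994-26388026, chr10:80450763-80513788 and chr11:98561209-98649236 (build mm9). CTCF was present at 8, 6 and 8 of their peaks and LDB1 at none, against 94.6% and 3.38% of the whole shared class. Their spans held 4, 1 and 1 LDB1 peaks of LDB1-AID cells outside these RAD21 peaks. They also held few other RAD21 peaks, since the LDB1-AID list had 11, 10 and 11 there in all.

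The LDB1-AID-only chains with the most peaks are set beside their whole class, which had CTCF at 70.5%, YY1 at 13.9% and LDB1 at 11.8%. The first, with 21 peaks at chr8:122893620-123118874, had CTCF at 11, YY1 at 0 and LDB1 at 3 of them, and 8 shared peaks lay between its members. The second, with 19 peaks at chr2:165678817-165857022, had CTCF at 7, YY1 at 5 and LDB1 at 5, and its 178 kb held 2 shared peaks. The third, with 18 peaks at chr12:78102585-78199176, had CTCF at 4, YY1 at 7 and LDB1 at 8, beside 4 shared peaks, and this span held 15 LDB1 peaks in LDB1-AID and 9 in SMC3-AID cells. The third region thus had LDB1 peaks in both sublines. In its span, 4 of 22 LDB1-AID RAD21 peaks were in the SMC3-AID list. Chains were chosen for their number of LDB1-AID-only peaks, so a low count of shared peaks follows from the choice. Genes were not assigned, because no annotation of this build was used here.

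Many peaks of the SMC3-AID-only class lay beside an LDB1-AID peak. Their median distance to the nearest LDB1-AID midpoint was 829 bp, against 25611 bp from LDB1-AID-only peaks to the nearest SMC3-AID midpoint. A gap of at most 1 kb separated 58.5% (55.1 to 61.8) of the 817 from an LDB1-AID RAD21 peak, and 4.65% of LDB1-AID-only peaks from an SMC3-AID one. For 380 of the 817 (46.5%) that neighbour was an LDB1-AID-only peak, so each list had a peak there and the 2 did not overlap. The midpoints of these 394 pairs were a median of 547 bp apart, and CTCF lay on the SMC3-AID peak alone in 177, on the LDB1-AID peak alone in 100, on both in 50 and on neither in 67. In 88 cases an LDB1-AID-only peak had an SMC3-AID-only peak on each side.

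The other 339 SMC3-AID-only peaks, with no LDB1-AID peak within 1 kb, were a different set. CTCF was present at 46.3% (41.1 to 51.6) of them, YY1 at 2.95% (1.61 to 5.34) and LDB1 of LDB1-AID cells at 2.95%, while LDB1 of SMC3-AID cells was present at 9.14% (6.52 to 12.7, 31 peaks), 11 of them at the start of chromosome 9. Among the 478 near an LDB1-AID peak, the shares were 54.4% for CTCF, 21.8% (18.3 to 25.7) for YY1 and 7.32% for LDB1. The excess of YY1 in the SMC3-AID-only class lay in the near set: its share in the 339 was below that of shared SMC3-AID peaks. Of the 817, 132 (16.2%) were more than 100 kb from any LDB1-AID RAD21 peak. The share of LDB1-AID-only peaks that far from any SMC3-AID one was similar, at 15.4%.

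The farthest SMC3-AID-only peak was at chr16:81869522-81869921, 2.69 Mb away, with no CTCF, YY1 or LDB1 peak. The next, at chr16:81330919-81331318 and 2.16 Mb away, lay on a CTCF peak, and the one at chrX:112176268-112176667, 2.08 Mb away, had none of the 3.

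SMC3-AID-only peaks lay closer to another SMC3-AID RAD21 peak, of either class, than shared ones did, with medians of 5337 and 23152 bp. Another peak within 25 kb was present for 66.5% (63.2 to 69.6) and 51.8% (51.0 to 52.6), a shared minus unshared difference of -14.6 points (-17.9 to -11.2). It was -8.39 points when neighbours closer than 1 kb were ignored, -26.5 within 10 kb and -2.65 within 100 kb. These distances count peaks of both classes. Where the next peak after an SMC3-AID-only peak lay within 25 kb, it was shared in 53.9% of cases (48.7 to 59.0). After a shared SMC3-AID peak it was shared in 95.3% (94.6 to 95.8). Counting only their own class, 60.7% of the 817 SMC3-AID-only peaks and 49.4% of the 14406 shared peaks had no other within 25 kb. The unshared class is far smaller, and a smaller class has fewer peaks to be near, so these 2 shares are not directly comparable. The group with the most members, 12 peaks, lay at the start of chromosome 9 (chr9:3000055-3038244), where the LDB1-AID list had 0 RAD21 peaks and 0 CTCF peaks. LDB1 of SMC3-AID cells was present at 11 of the 12, and YY1 and LDB1 of LDB1-AID cells at 2 each. The span held 18 LDB1 peaks in SMC3-AID and 2 in LDB1-AID cells. A RAD21 peak was also present at 11 of the 12 after 4 h of auxin, which degrades the tagged SMC3. Whether the peaks of this group reflect cohesin binding was not tested. Of the 24 RAD21 peaks left after auxin on these chromosomes, 12 lay on SMC3-AID-only and 2 on shared peaks. The next groups, of 4 peaks each within 5.05 and 5.45 kb, were at chr16:30063970-30069018 and chr5:58105738-58111182, and each surrounded 1 shared peak.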

How the data were processed

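RAD21, CTCF, YY1 and LDB1 peaks were measured by ChIP-seq in sublines of G1E-ER4, and samples were grouped by their titles. The authors deposited each list as peak positions in bp, with other values such as scores lacking. Per the labels, the lists of LDB1-AID cells combine 2 replicates and those of SMC3-AID cells 3. The submitters' processing notes name Bowtie2, MACS2 2.2.9.1, deepTools 3.5.1 and the build mm9. The rule of the consensus and the filters are not given in the sources used here. Coordinates are counted from 1.

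Overlaps and distances were computed in Python 3.11.15 with pandas 2.3.3 and checked on 5000 simulated peaks and against bedtools, with 0 mismatches. Unless stated otherwise, at least 1 bp had to overlap. No p-values were computed, since each group is 1 list. An interval of a difference that leaves out 0 was the threshold. Named regions are, for each class, the 3 chains of peaks within 25 kb with the most members, and the 3 SMC3-AID-only peaks farthest from an LDB1-AID one. The 1 kb distance from CTCF, the position relative to CTCF and the split of SMC3-AID-only peaks were chosen after their values were seen, and all comparisons were chosen with earlier results of these data known. Alternatives were other overlap rules, distances and chromosome sets. Motif searches planned for a genome of this build were not run.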

Additional observations from a re-analysis of the deposited data

Results flagged for a closer look

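Among RAD21 peaks without a CTCF peak, the contrast of shared against unshared peaks differed between the 2 sublines. For LDB1 of LDB1-AID cells it was -6.91 points (-10.1 to -3.47) in the LDB1-AID list and 17.0 points (12.5 to 21.1) in the SMC3-AID list. The difference of -23.9 points had an interval from -29.1 to -18.3. Shared peaks of the 2 lists overlap, so the 2 contrasts are not independent, and the intervals of their differences ignore this. LDB1 was at 26.7% of shared LDB1-AID and 26.8% of shared SMC3-AID peaks. The gap thus lay between the LDB1-AID-only (33.6%) and SMC3-AID-only (9.75%) peaks. With LDB1 of SMC3-AID cells these shares were 26.2% and 14%, so the gap was smaller with that list. For YY1 the contrasts were -7.88 points (-10.9 to -4.59) and 8.88 points (4.13 to 13.3), a difference of -16.8 points (-22.1 to -11.0). For LDB1 of SMC3-AID cells the contrast in the LDB1-AID list was -1.40 points with an interval that includes 0 (-4.52 to 1.95), that in the SMC3-AID list was 12.2 points (7.45 to 16.7), and the difference was -13.6 points (-19.1 to -7.79). With no CTCF midpoint within 1 kb, the shared class was higher in both lists for all 3.

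Outside chromosomes 1 to 19 and X the LDB1-AID list held 44 RAD21 peaks and the SMC3-AID list 22. Of these, 21 in each list overlapped a peak of the other. Mitochondrial peaks numbered 5 and 0.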

How the results depend on the processing

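For 13 results 80 alternative values were computed, and 65 of them gave the same answer. By that is meant that a difference whose interval left out 0 kept its sign and still left out 0, that one whose interval included 0 still included it, with either sign, that a count moved by less than 1.5 times and that a share stayed within its interval. SMC3-AID-only peaks numbered 1511 when at least 50% of both RAD21 peaks had to overlap, 339 when a gap of 1 kb was allowed and 542 when peaks within 1 kb were merged first, against 817. The YY1 difference of shared minus SMC3-AID-only peaks (-7.62 points) became 3.88 with a gap of 1 kb, 8.88 without CTCF peaks and 26.5 with no CTCF within 1 kb. The LDB1 difference there (-2.30) became 0.389 (interval -2.02 to 1.76), 17.0 and 45.7 under the same settings. Shared minus LDB1-AID-only, YY1 (-7.26) became 8.24 and LDB1 (-8.41) became 21.7 with no CTCF within 1 kb, a setting chosen after the data were seen. Another RAD21 peak was nearby in shared minus LDB1-AID-only peaks by 0.118 points within 25 kb, -1.56 within 10 kb and 1.13 within 100 kb. Pairs within 50 bp, with each LDB1-AID peak paired once, were 65.5%, and 66.5% with and 47.3% without CTCF. The cause was not tested. No paired analysis was possible because the replicates were combined in each list, and for the same reason none could be left out. No stricter peak threshold could be set, since the lists hold no scores, and depth, which limits every count here, is unknown.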
